A study of Mus musculus with 4 samples.

Results

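Ribosome footprints of 5 mouse mRNAs, Eef1a1, Eef1b2, Eif5a, Tpt1 and Nap1l1, were followed in mouse embryonic fibroblasts treated with a control siRNA or with one against eIF1A, a factor of translation initiation. The genes were chosen by name, as elongation factors and as mRNAs for other proteins that carry a terminal oligopyrimidine (TOP) tract, and they are 5 of the 4878 genes in the table. Ribosome profiling sequences the RNA fragments that ribosomes protect from RNase, here RNase I. Both groups were fibroblasts at passages 5 to 8, transfected by Lipofectamine RNAiMAX with a negative control siRNA or with the eIF1A siRNA named X+18, and each group had 2 libraries, called control replicates 1 and 2 and knockdown replicates 1 and 2. The labels name 1 siRNA against eIF1A and do not say whether the replicates were separate cultures, so p-values measure only how far these libraries spread, and that spread may be technical. The rows of eIF1A itself were not analysed here, so the knockdown was not checked. No RNA-seq was used beside the footprints, so in a footprint level more mRNA and more ribosomes on each mRNA cannot be told apart.

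A TOP mRNA begins with a C at the cap followed by a run of pyrimidines, and most such mRNAs encode ribosomal proteins or other parts of the translation machinery. The mTOR kinase and the RNA-binding protein LARP1 decide through this tract whether ribosomes load on the mRNA, so the whole class responds together to nutrients and growth signals. eIF1A acts before elongation begins, on the small ribosomal subunit, in the scanning of the 5' untranslated region (5' UTR, or leader) and the choice of the start codon.

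The annotated starts of the 5 genes show which of them carry such a tract at the position RefSeq gives. All 5 had an entry in the RefSeq start table (GRCm38.p6), with 1 start each except Eif5a, which had 6. The 15 bases before the first base of the RNA are in lower case and the first 15 bases of the RNA are in capitals, on the gene's own strand.
Eef1a1, chr9:78481710-78481739, minus strand: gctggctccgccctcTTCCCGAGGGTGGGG
Eef1b2, chr1:63176816-63176845, plus strand: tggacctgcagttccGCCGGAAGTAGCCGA
Eif5a, most upstream start, chr11:69921944-69921973, minus strand: aagtaccgaagccggGATGGTTGTAATCCG
Tpt1, chr14:75845241-75845270, plus strand: gtcaccgctgacgacAGTTCCGGGGGAGCC
Nap1l1, chr10:111473212-111473241, plus strand: ggcgggctctcgggtCTTTTTTAGCGCCAT

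Nap1l1 alone among these starts opens with the pattern, a C and then at least 4 pyrimidines (C or T) on the sense strand. Its run, CTTTTTT, is 7 bases long. The pattern stood at 823 of all 32851 annotated starts (2.51%). None of the 6 Eif5a starts had it. Of the 17 cytosolic ribosomal protein genes that had both a row in the footprint table and a start entry, 1 had it, Rps6. An annotated start can lie some bases away from the start used in these cells, so the missing letters say nothing about the tract of Eef1a1, Eef1b2, Eif5a or Tpt1.

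The table gives, per gene and library, the normalized number of reads on the coding sequence and on the 5' UTR. The listed genes held 617663 and 547916 reads in the controls and 458191 and 280649 in the knockdown libraries. Footprints lay on 5' UTRs more often in the knockdown: 11.6% and 13.7% of all listed reads in the controls, 19.95% and 32.4% in knockdown replicates 1 and 2. For 12 fibroblast markers the table held 5 rows (Fn1, Sparc, Vim, S100a4 and Loxl1), with a summed coding level of 4495 and 6018 normalized reads in the controls and 4325 and 3239 in the knockdown libraries, most of it Fn1. Of these 5 only S100a4 was called in coding reads, beside 29.3% of all genes tested (18.7% lower). It fell from 142 ± 10.6 to 17.9 ± 0.530 (SD, n = 2, log2 -2.92, limma adjusted p = 2.4e-05). The epithelial marker Dsp and the neuronal marker Map2 were the only rows found among 27 markers of 7 other cell types. Map2 fell from 65.9 and 55.3 normalized coding reads to 15.3 and 6.38 (log2 -2.49, limma adjusted p = 0.000648). Dsp had 109 and 146 against 82.4 and 71.8 (log2 -0.71, limma adjusted p = 0.0876). As in 40.1% of all genes tested, both knockdown libraries lay below both controls for Map2 and Dsp. Their part in the results was not tested.

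Of the 5 mRNAs, 4 gained coding footprints under the eIF1A siRNA (Eef1a1, Eef1b2, Eif5a and Tpt1), by 2.35-fold to 3.95-fold between the group means. Leader footprints rose in a different set of 4 (Eef1a1, Eef1b2, Tpt1 and Nap1l1), by 5.54-fold to 13.4-fold. Eif5a gained coding reads and kept a similar mean leader level, while Nap1l1 gained leader reads about 13-fold and had a coding change that did not pass the test. Tests were run with limma on log2(normalized reads + 1) over all genes that averaged 10 or more over the 4 libraries, at a Benjamini-Hochberg adjusted p threshold of 0.05. Of all 4619 genes tested for coding reads, 29.3% were called (10.6% higher, 18.7% lower), and of 2101 tested for leader reads, 46.8% were (44.0% higher, 2.81% lower). None of the 5 mRNAs was called lower in either. The rises in leader reads therefore stand in a table where the median gene had a log2 leader change of 1.09 and a log2 coding change of -0.16.

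**Figure D1:**
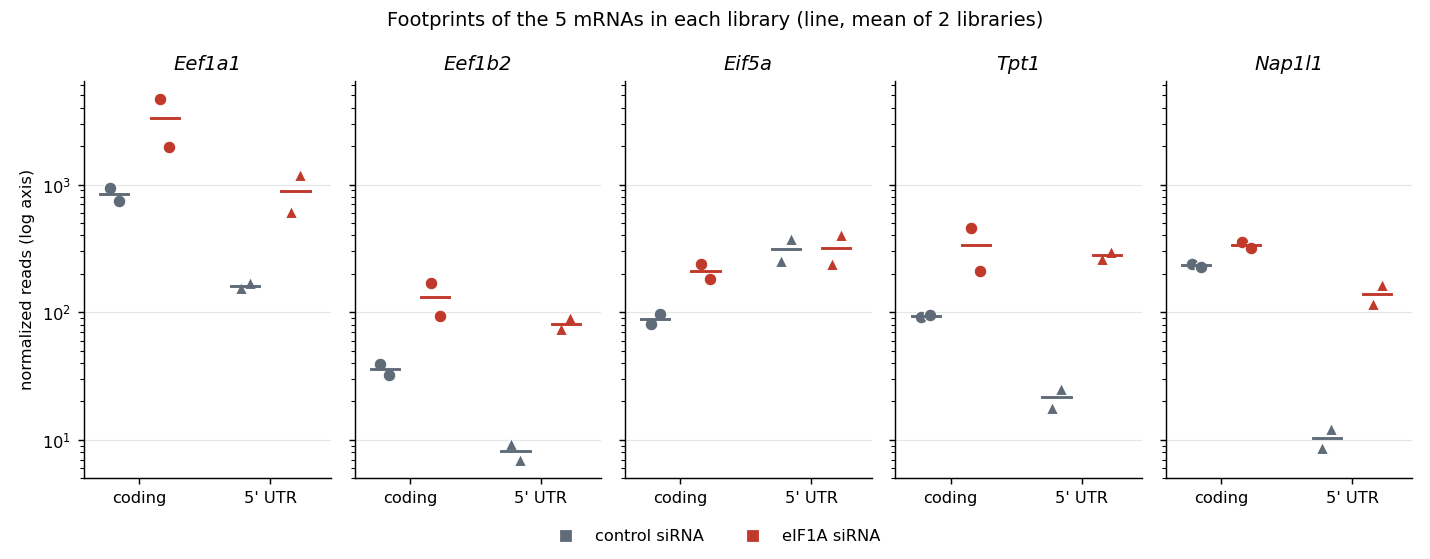
Normalized reads (log axis) on the coding sequence (circles) and on the 5' UTR (triangles) of each of the 5 mRNAs, with 1 symbol per library and a line at the mean of 2 libraries (grey, control siRNA; red, eIF1A siRNA). Coding reads of Eef1a1 lie at 742 and 941 in the controls and at 1973 and 4667 in the knockdown libraries, and 5' UTR reads of Nap1l1 lie at 8.60 and 12.1 against 115 and 163.

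Eef1a1 encodes the main form of the GTPase eEF1A, which carries aminoacyl-tRNAs to the ribosome (chromosome 9, 78478453 to 78481724, minus strand, 1 RefSeq transcript). Its normalized coding reads were 941 in control replicate 1, 742 in control replicate 2, 4667 in knockdown replicate 1 and 1973 in knockdown replicate 2. Both knockdown libraries lay above both controls, the first of them 2.37 times above the second. The group means were 841 ± 141 and 3320 ± 1905 (SD, n = 2), a log2 change of 1.86 ± 0.38 by limma (SE, adjusted p = 0.00219). Eef1a1 took 0.240% and 0.181% of the listed coding reads in the controls (95% Wilson intervals 0.228 to 0.254 and 0.170 to 0.194), and 1.25% and 0.652% in the knockdown libraries (1.22 to 1.29 and 0.616 to 0.689). All such intervals cover counting error only, since reads without molecular identifiers are not independent molecules. The size of the rise depended on the knockdown library: the log2 change was 2.48 without knockdown replicate 2 and 1.24 without knockdown replicate 1.

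Leader reads of Eef1a1 moved in the same direction with the opposite order of the knockdown libraries. They were 154 and 169 normalized reads in the controls, and 604 and 1184 in knockdown replicates 1 and 2. The log2 change was 2.39 ± 0.40 (SE, limma adjusted p = 1.44e-07), from 161 ± 10.2 to 894 ± 410 (SD, n = 2), with no overlap between the groups. The ratio of leader to coding reads had a log2 change of 0.53 ± 0.78 by limma (SE, adjusted p = 0.613). That ratio was 0.164 and 0.227 in the controls, 0.129 in knockdown replicate 1 and 0.6003 in knockdown replicate 2, so the knockdown libraries lay on either side of the controls. Its sign rests on 1 library and on whether each region is quantile-normalized. The log2 change was -0.58 without knockdown replicate 2 and 1.63 without knockdown replicate 1. With each region quantile-normalized it was -0.54.

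Eef1b2 encodes eEF1B alpha, the factor that exchanges GDP for GTP on eEF1A and so readies it for the next round (chromosome 1, 63176831 to 63180486, plus strand, 1 RefSeq transcript). Its normalized coding reads were 39.4 and 32.0 in the controls, and 170 and 92.6 in knockdown replicates 1 and 2. Both knockdown libraries were higher than both controls, the first of them 1.83 times above the second. The group means were 35.7 ± 5.25 and 131 ± 54.6 (SD, n = 2), a log2 change of 1.79 ± 0.34 by limma (SE, adjusted p = 0.00148). This rise and that of Eef1a1 came to 3.68-fold and 3.95-fold between the group means.

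The leader of Eef1b2 held few reads in the controls, 13 and 8 before normalization, against 72 and 56 in the knockdown libraries. In normalized reads these were 9.31 and 6.91 in the controls and 73.2 and 89.4 in the knockdown, a log2 change of 3.18 ± 0.52 by limma (SE, adjusted p = 4.81e-08). The groups did not overlap, and the mean was 10.02 times higher in the knockdown. The control mean was 8.11, so Eef1b2 passed the leader filter, a mean of 10 over all 4 libraries, only through the knockdown libraries. The ratio of leader to coding reads was 0.236 and 0.216 in the controls, but 0.431 and 0.966 in the knockdown libraries, a log2 change of 1.39 ± 0.79 that did not pass (limma adjusted p = 0.181). It was 1.96 (adjusted p = 0.00868) without knockdown replicate 1, 0.81 (adjusted p = 0.413) without knockdown replicate 2 and 0.18 (adjusted p = 0.838) with quantile normalization of each region.

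Eif5a encodes eIF5A, the hypusine-bearing factor that helps ribosomes past sequences where peptide bonds form slowly, such as runs of proline, and that also acts in termination (chromosome 11, 69916712 to 69921958, minus strand, 12 RefSeq transcripts). The span of Gps2 (69913980 to 69917056) overlaps the 3' end of Eif5a. Normalized coding reads were 81.0 and 96.8 in the controls, and 238 and 180 in knockdown replicates 1 and 2. Both knockdown libraries were above both controls and differed from each other less than in Eef1a1, by 1.32 times. The means were 88.9 ± 11.2 and 209 ± 40.7 (SD, n = 2), a log2 change of 1.22 ± 0.29 by limma (SE, adjusted p = 0.00646).

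The leader of Eif5a held more reads than its coding sequence in both controls. Its normalized leader reads were 250.1 and 377 in the controls, and 237 and 399 in the knockdown libraries. The range of the controls lay inside that of the knockdown libraries, and the means were 313 ± 89.6 and 318 ± 115 (SD, n = 2). The log2 change was 0.00 (95% interval -0.80 to 0.81, limma adjusted p = 0.996), 1.09 below the median gene. The interval is wide, and the sign was negative without control replicate 1 (-0.29), without knockdown replicate 2 (-0.37) and after quantile normalization of the leader reads, where it passed the test (-1.11, adjusted p = 2.19e-05).

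The ratio of leader to coding reads of Eif5a was 3.09 and 3.89 in the controls, but 0.996 and 2.21 in the knockdown libraries. Both knockdown libraries lay below both controls, as in 1.52% of the 1907 genes tested for the ratio. The log2 change of the ratio was -1.21 ± 0.80 (SE, 95% interval -2.77 to 0.34) and did not pass (limma adjusted p = 0.243). It was -0.64 without knockdown replicate 1, -1.79 without knockdown replicate 2 and -2.57 (adjusted p = 0.0567) with quantile normalization. Of the 1907 genes, 0.577% had a lower value. Eif5a has 6 annotated starts, and how the table treats a base that is leader in 1 transcript and coding in another is not stated in the material at hand.

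Tpt1 encodes the translationally controlled tumour protein, an abundant growth-related protein whose mRNA is a classical TOP mRNA (chromosome 14, 75845256 to 75848303, plus strand, 1 RefSeq transcript). Its normalized coding reads were 91.7 and 95.1 in the controls, and 459 and 209 in knockdown replicates 1 and 2. The controls were close together, and the knockdown libraries were both higher but 2.19 times apart. The means were 93.4 ± 2.37 and 334 ± 176 (SD, n = 2), a log2 change of 1.72 ± 0.34 by limma (SE, adjusted p = 0.00201).

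On the leader, Tpt1 had 25 and 29 reads in the controls and 256 and 186 in the knockdown libraries. The normalized values were 17.9 and 25.1 against 260.4 and 297, so that the knockdown pair lay close together here. The log2 change was 3.65 ± 0.46 (SE, limma adjusted p = 1.16e-12), 2.56 above the median gene, and 98.8% of the 2101 genes had a smaller one. The ratio of leader to coding reads was 0.195 and 0.264 in the controls, and 0.568 and 1.42 in the knockdown libraries. Its log2 change of 1.93 ± 0.79 (SE) missed the threshold (limma adjusted p = 0.0642). With edgeR and DESeq2 on whole reads recovered from the table it passed (adjusted p = 0.0424 and 0.0372). Over the alternatives it ranged from 0.70, with quantile normalization, to 2.59, without knockdown replicate 1, and it was 1.27 without knockdown replicate 2.

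Nap1l1 encodes a histone chaperone of the nucleosome assembly protein family, and its mRNA carries a TOP tract although the protein has no direct part in translation (chromosome 10, 111472882 to 111498150, plus strand, 6 RefSeq transcripts). Its normalized coding reads were 239 and 227 in the controls, and 352 and 319 in knockdown replicates 1 and 2. Both knockdown libraries were higher than both controls and each pair was tight, but the difference was small. The means were 233 ± 7.99 and 336 ± 23.1 (SD, n = 2), 1.44-fold, and the log2 change of 0.52 ± 0.28 (SE, 95% interval -0.07 to 1.11) did not pass (limma adjusted p = 0.167). With quantile normalization it was 0.83 and passed (adjusted p = 0.034).

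The leader of Nap1l1 was nearly empty in the controls, with 12 and 14 reads, and held 113 and 102 in the knockdown libraries. In normalized reads these were 8.60 and 12.1 against 115 and 163, and the lowest knockdown library was 9.50 times above the highest control. The log2 change was 3.62 ± 0.50 (SE, limma adjusted p = 6.34e-11), from 10.3 ± 2.48 to 139 ± 33.9 (SD, n = 2). The ratio of leader to coding reads went from 0.036 and 0.0532 to 0.327 and 0.51, a log2 change of 3.096 ± 0.76 by limma (SE, adjusted p = 0.00233). It was 1.87 above the median gene, and 98.1% of the 1907 genes had a smaller change in this ratio. The call of the ratio was lost without control replicate 1 (2.84, adjusted p = 0.735), without control replicate 2 (3.36, adjusted p = 0.491) and with quantile normalization of each region (1.80, adjusted p = 0.0867).

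Nap1l1 was the only one of the 5 whose leader-to-coding ratio passed, against 19.5% of all genes tested (19.4% higher, 0.0524% lower). Groups did not overlap, with the knockdown above, for 5 of 5 mRNAs in coding reads (26.0% of all genes), 4 of 5 in leader reads (67.4%) and 3 of 5 in the ratio (64.0%). The reverse, both knockdown libraries below both controls, was found for 0 of 5 in coding reads (40.1% of all genes), 0 of 5 in leader reads (7.19%) and, as given above, for Eif5a in the ratio. The median of the 5 was 1.72 in coding reads, 3.18 in leader reads and 1.39 in the ratio, beside -0.16, 1.09 and 1.23 over all genes tested. For leader reads and the ratio, limma gave every gene the variance of the trend, so the small p-values in these regions reflect a spread pooled over genes. All 4 coding calls were lost without control replicate 2, where 11 genes in the whole table passed, and those of Eif5a and Tpt1 also without control replicate 1 (adjusted p = 0.0992 and 0.0665). The coding log2 changes without control replicate 2 were 1.69 for Eef1a1, 1.65 for Eef1b2, 1.34 for Eif5a and 1.74 for Tpt1.

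**Figure D2:**
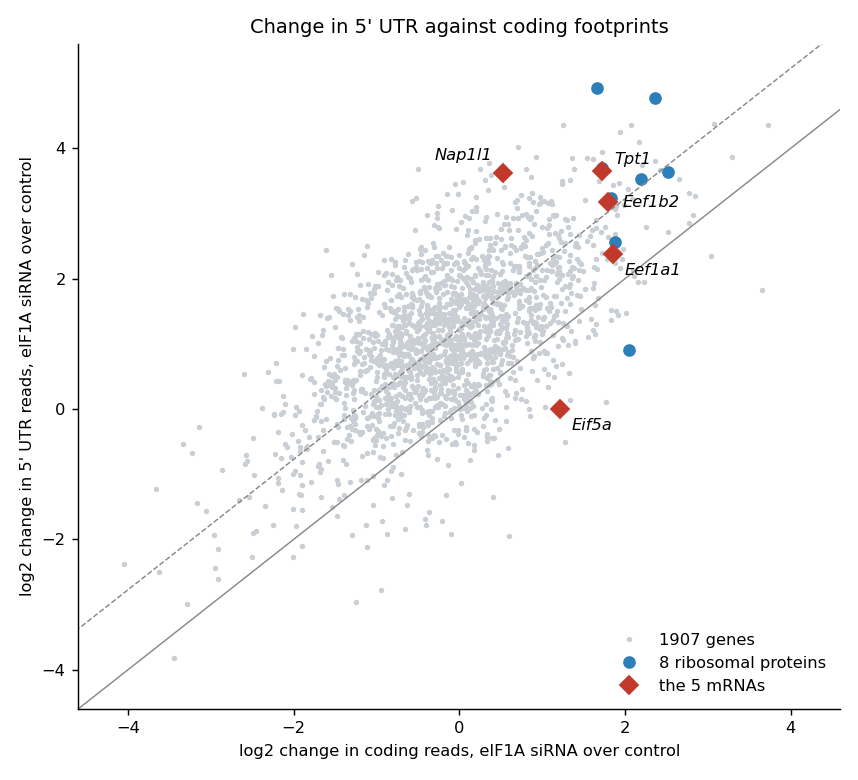
Log2 change in 5' UTR reads (vertical) against log2 change in coding reads (horizontal), eIF1A siRNA over control, for the 1907 genes tested in both regions (grey), 8 ribosomal proteins (blue) and the 5 mRNAs (red diamonds). The solid line marks equal changes and the dashed line the median ratio change of 1.23. Nap1l1 lies at 0.52 and 3.62, above the dashed line, and Eif5a at 1.22 and 0.00, below the solid line.

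The share of a gene's footprints that lies on its leader puts the same reads on a scale that no scaling between libraries can move. It depends on the lengths of the regions, so it is compared within a gene only. For Nap1l1 it was 3.48% and 5.05% in the controls (95% Wilson intervals 2.00 to 5.98 and 3.03 to 8.30), and 24.6% and 33.8% in knockdown replicates 1 and 2 (20.9 to 28.8 and 28.7 to 39.3). For Tpt1 it was 16.3% and 20.9% against 36.2% and 58.7%, and for Eef1b2 19.1% and 17.8% against 30.1% and 49.1%. In each of these 3 mRNAs the knockdown libraries were both above the controls, and replicate 2 had the larger share.

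Eef1a1 and Eif5a departed from that order. Eef1a1 had 14.1% and 18.5% of its reads on the leader in the controls (intervals 12.4 to 15.9 and 16.3 to 21.0), 11.5% in knockdown replicate 1 (10.6 to 12.4) and 37.5% in knockdown replicate 2 (35.4 to 39.7). Eif5a had 75.5% and 79.6% in the controls (71.4 to 79.2 and 76.0 to 82.7), and 49.9% and 68.9% in the knockdown libraries (45.4 to 54.4 and 63.9 to 73.4). The median over the 1907 genes was 21.1% and 26.3% in the controls, and 33.8% and 52% in the knockdown libraries. The whole table thus had its highest leader share in knockdown replicate 2, the library with the fewest reads, and the part of this library in the shares of the 5 mRNAs was not tested.

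**Figure D3:**
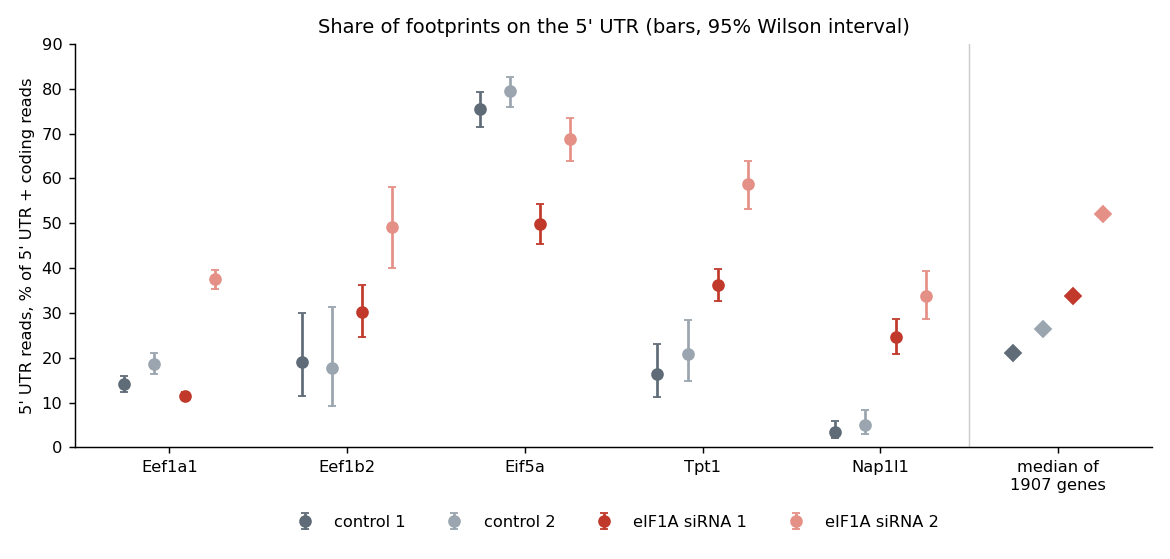
Share of reads on the 5' UTR among 5' UTR and coding reads (percent) of each of the 5 mRNAs in each library, with 95% Wilson intervals (grey, controls; red, eIF1A siRNA), and the median share over 1907 genes (diamonds). Nap1l1 goes from 3.48% and 5.05% to 24.6% and 33.8%, and Eif5a from 75.5% and 79.6% to 49.9% and 68.9%.

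With both regions added together, the 5 mRNAs differed in their total of footprints. Tpt1 had 110 and 120 normalized reads in the controls and 719 and 506 in the knockdown libraries, 5.33-fold between the means. Eef1b2 reached 4.85-fold and Eef1a1 4.20-fold. Nap1l1 had 247 and 239 against 467 and 482, 1.95-fold. Eif5a had 331 and 474 against 475 and 579, 1.31-fold, where the lowest knockdown library was next to the highest control.

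The knockdown replicates did not measure the same coding rise. Knockdown replicate 1 exceeded replicate 2 in coding reads 2.37 times for Eef1a1, 2.19 times for Tpt1, 1.83 times for Eef1b2, 1.32 times for Eif5a and 1.10 times for Nap1l1, while the median gene had 1.23 times. Among 20 tested ribosomal proteins, replicate 1 was the higher in 18, with a median of 1.68 times. On the leaders the order was turned, as in the table as a whole: replicate 1 was below replicate 2 for all 5 mRNAs, from 0.510 times for Eef1a1 to 0.877 times for Tpt1, beside 0.637 times for the median gene.

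Coding patterns over the 4 libraries were compared by the distance between log2 values centred on each gene's mean, among the 1843 genes (no pseudogenes or unnamed models) whose coding reads averaged 50 or more. This is a description of 4 libraries that share their scaling. The 3 nearest genes to Eef1b2 were Gnb2l1 (the ribosomal scaffold protein Rack1, distance 0.105), Rps3 (0.107) and Rpl4 (0.108), and those to Tpt1 were Rpl9 (0.0995), Rpl11 (0.166) and Rpl17 (0.276). Eef1a1 lay next to the prohibitin gene Phb (0.0957), Rpl17 (0.216) and the mitochondrial ribosome protein gene Gadd45gip1 (0.247). Nearest to Eif5a were Snrpd2 (0.118) and Snrpf (0.12), which encode spliceosomal Sm proteins, and Hint1 (0.139), and nearest to Nap1l1 were the purine synthesis gene Gart (0.081), Hnrnpc (0.084) and the co-chaperone gene Fkbp4 (0.104). Among the 5 mRNAs themselves, Eef1a1, Eef1b2 and Tpt1 were 0.275 to 0.322 apart, whereas Nap1l1 was 1.56 from Eef1a1, 1.38 from Eef1b2 and 1.39 from Tpt1.

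Beyond Eef1a1, Eef1b2 and Eif5a, Eef2 and Eef1e1 also gained coding reads. Of 10 genes listed as cytosolic elongation factors, these 5 included, 6 were in the table and 6 tested. Of the 6, 5 rose (10.6% of all genes tested did), with a list median of 1.48 in log2 beside -0.16 over all genes. Of the 5 that rose, 3 are mRNAs described above, and Eef1e1 is not itself an elongation factor. The count was 3 without control replicate 1 and 0 without control replicate 2, where 4 had an unadjusted p under 0.05 by limma. Eef2, the GTPase that moves the ribosome along by 1 codon, rose from 998 ± 84.1 to 1847 ± 199 normalized coding reads (SD, n = 2), a log2 change of 0.89 ± 0.30 by limma (SE, adjusted p = 0.0372), a call lost in 5 of 15 alternatives, those without control replicate 2 and without either knockdown replicate among them. Its leader rose from 25.1 ± 1.11 to 235 ± 15.6 normalized reads (log2 3.17, adjusted p = 8.92e-10), and its leader-to-coding ratio rose by 2.29 in log2 (adjusted p = 0.016), a call lost in 3 of 15 alternatives, those without either control and with quantile normalization. Eef1e1, which encodes a scaffold protein of the aminoacyl-tRNA synthetase complex, rose from 7.10 ± 5.16 to 23.8 ± 6.59 (log2 1.75, adjusted p = 0.0292), lost in 4 of 14 alternatives. Its controls held only 10.7 and 3.46 normalized reads, and it passed the filter, a mean of 10 over all 4 libraries, only through the knockdown libraries. Eefsec, the selenocysteine elongation factor, had a log2 change of 0.63 (adjusted p = 0.316). Eef1a2, Eif5a2 and Eef1d, close relatives of 3 of the mRNAs described here, had no row under these symbols in the table. How reads shared between near-identical genes or processed pseudogenes were counted is not given. The levels of Eef1a1, Tpt1 and the ribosomal proteins are uncertain to that extent.

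Other mRNAs with a known TOP tract, not named as ribosomal proteins, were followed as a second list. Gnb2l1 on this list encodes Rack1, a scaffold protein of the ribosome. Of 11 listed, Tpt1 and Nap1l1 included, 8 were tested for coding reads and 3 rose, against 10.6% of all genes, with a median of 0.69 beside -0.16. For leader reads 5 were tested and 5 rose, against 44.0% of all genes, with a median of 2.31 beside 1.09. The coding count was 1 without control replicate 1, 0 without control replicate 2 (2 at an unadjusted p under 0.05 by limma), 2 without knockdown replicate 1 and 6 without knockdown replicate 2. Gnb2l1 rose in coding reads from 169 ± 25.3 to 597 ± 207 (log2 1.78, limma adjusted p = 0.000807) and in leader reads from 44.0 ± 3.60 to 232 ± 100.1 (log2 2.31, adjusted p = 7.58e-06). Eif3h, a subunit of initiation factor eIF3, rose by 1.28 in coding reads (adjusted p = 0.0239), a call lost in 4 of 15 alternatives. The poly(A)-binding protein gene Pabpc1 had a coding log2 change of 0.35 (adjusted p = 0.39) and a leader change of 2.24 (adjusted p = 2.22e-05), and Vim, vimentin, had 0.38 (adjusted p = 0.481, and -0.33 without knockdown replicate 1) and 1.77 (adjusted p = 0.000121). With TMM factors or quantile normalization, 5 of the 8 rose in coding reads.

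Cytosolic ribosomal proteins, the bulk of the TOP class, had 21 rows in the table, and these rows made up the list. Ribosomal proteins without a row are not covered. The listed ones gained coding reads together. All 20 tested rose by limma, with a median of 1.89 and a range of 1.16 to 2.52, against 10.6% of all genes. In leader reads 8 of 9 tested rose, against 44.0% of all genes, with a median of 3.52 beside 1.09. The leader controls of Rpl34, Rpl4, Rps24, Rps27a, Rps27l and Rps9 averaged only 1.58 to 6.61 normalized reads. These genes passed the leader filter, a mean of 10 over all 4 libraries, only through the knockdown libraries. The leader count therefore favours genes that rose. Rpl12 (2.52), Rps6 (2.48), Rpl41 (2.36) and Rps9 (2.19) had the smallest adjusted p in coding reads. Without control replicate 2, 0 of the 20 passed in coding reads, while 19 had an unadjusted p under 0.05, and no other coding call of a gene named here passed either. Eef1a1, Eef1b2 and Tpt1 fell inside the range of the ribosomal proteins, Eif5a near its lower end, and Nap1l1 below it.

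**Figure D4:**
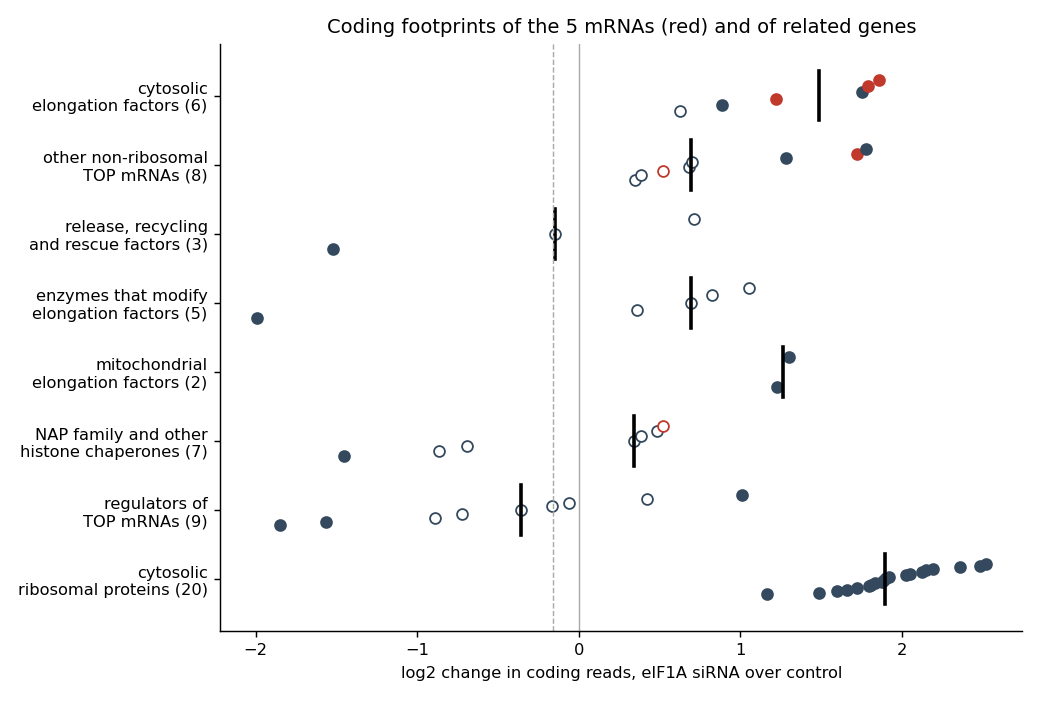
Coding reads, log2 of eIF1A siRNA over control, for the tested members of 8 gene lists (number tested in brackets), with filled dots for genes past the limma threshold, the 5 mRNAs in red, each list's median as a black line and a dashed line at the median of all genes (-0.16). The list of cytosolic elongation factors, Eef1e1 included, has a median of 1.48 and that of ribosomal proteins 1.89. Nap1l1 at 0.52 is listed both as a TOP mRNA and as a histone chaperone.

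Regulators of TOP mRNAs moved in both directions in coding reads, with a log2 change above 0 in only 2 of the 9 tested. Of 19 listed, 9 were tested for coding reads, 1 rose and 2 fell (median -0.36), beside 10.6% higher, 18.7% lower and a median of -0.16 over all genes. Rptor, the subunit that recruits substrates to mTOR complex 1, fell by 1.85 in log2, from 67.1 ± 24.9 to 20.04 ± 14.8 normalized coding reads (SD, n = 2, limma adjusted p = 0.00744). Larp4b, an RNA-binding protein of the La-related family, fell by 1.56 (adjusted p = 0.0042), and Eif4e, the cap-binding protein, rose by 1.01 (adjusted p = 0.049), a call lost in 7 of 15 alternatives. Mtor itself had a log2 change of 0.42 (adjusted p = 0.294). Among enzymes that modify elongation factors, 5 of 15 listed were tested and 1 fell, beside 18.7% of all genes tested. It was Eef2k, the kinase that inhibits eEF2, with a log2 change of -1.99 (limma adjusted p = 0.0392). This call was lost in 5 of 14 alternatives. In knockdown replicate 2 Eef2k stood at 1 read, the lowest value of that library, so the size of its fall is uncertain. Dhps and Dohh, which make the hypusine of eIF5A, had log2 changes of 0.82 (adjusted p = 0.114) and 1.05 (adjusted p = 0.123).

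Among histone chaperones, the functional relatives of Nap1l1, 1 coding change passed. Of 12 listed, Nap1l1 itself included, 7 were tested, with a list median of 0.34 beside -0.16 over all genes. Over all genes tested 29.3% were called, 10.6% higher and 18.7% lower. The one that fell was Chaf1a, a subunit of chromatin assembly factor 1, from 248 ± 7.31 to 90.2 ± 3.37 normalized coding reads (log2 -1.45, adjusted p = 0.00165). Nap1l4, the closest relative of Nap1l1 in the table, had 37.8 ± 9.41 and 48.9 ± 3.04 normalized coding reads (log2 0.39, adjusted p = 0.411).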

How the data were processed

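Ribosome profiling libraries of mouse fibroblasts (2 per group) were analysed from 1 table. Per the submitters' processing notes, the authors used cutadapt, Bowtie, TopHat2, HTSeq and DESeq2 with build mm10, and no versions are given. The deposited table holds a signal, per the file headers normalized reads on the 5' UTR and on the coding sequence of each gene. In each library 100% of values were whole multiples of the lowest value (within 0.001 reads), so whole reads were recovered. The lowest value is 1 read, and no source used here says what was done with genes that had none. Columns left unused numbered 0.

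Values were tested as log2(normalized reads + 1) with limma 3.58.1 (R 4.3.3, empirical Bayes with a trend), on 4619 (coding), 2101 (5' UTR) and 1907 (ratio) genes. An exact permutation test (two-sided) over these 4 libraries cannot go below 0.333 and was not used. edgeR 4.0.16 and DESeq2 1.42.0 on recovered reads, with the deposited scaling, were alternatives. Other alternatives were scaling, pseudocount, filter, left-out libraries, a replicate block and 1 read subtracted. On simulated reads with 200 changed genes, 85% of 4-fold and 15% of 2-fold coding changes were recovered with 7 false calls, 66% and 4% for the 5' UTR with 3, and 24% and 1% for the ratio with 2.

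The 5 mRNAs, the gene lists and the rule for named genes were chosen with earlier results of these data known. That rule took the 5 mRNAs, up to 4 further genes per list past the coding threshold with the smallest adjusted p (otherwise up to 2 by mean level), the 3 nearest coding patterns and close paralogs. Eefsec, Pabpc1, Vim, Mtor, Dhps, Dohh and Etf1 were named outside it, after their values were seen.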

Additional observations from a re-analysis of the deposited data

How the results depend on the processing

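The sign of the coding change of all 5 mRNAs, and of the leader change of all but Eif5a, was the same under every alternative run. With 1 library left out, log2 coding changes ranged from 1.24 to 2.48 (Eef1a1), 1.36 to 2.23 (Eef1b2), 1.02 to 1.42 (Eif5a) and 1.15 to 2.28 (Tpt1). The leader change of Eif5a ranged from -0.37 to 0.38, and ratio changes ranged from -0.58 to 1.63 (Eef1a1), 0.81 to 1.96 (Eef1b2), -1.79 to -0.64 (Eif5a), 1.27 to 2.59 (Tpt1) and 2.78 to 3.42 (Nap1l1). With a control left out, only the knockdown pair is left to estimate the spread, and the lone control is assumed to vary like it. Quantile normalization of each region gave 0.83 for the coding change of Nap1l1 (passed), -1.11 for the leader of Eif5a (reversed, passed), -0.54 for the ratio of Eef1a1 (reversed) and 1.80 for that of Nap1l1 (lost); it moves the median leader change of all genes from 1.09 to 0.11 and the median coding change from -0.16 to -0.0017, and TMM factors move the latter to 0.0074. Among the alternatives that kept all 4 libraries, the ratio change of Tpt1 passed with a pseudocount of 5 (1.75) and with edgeR and DESeq2 (both 1.97). It also passed with a mean of at least 50, the replicate block and a trend over the leader level (1.93 each), the last chosen after seeing the data.

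Genes called in coding reads numbered 1352, and 11 to 1729 with 1 library left out, 788 at a mean of at least 50 and 890 by DESeq2. Without control replicate 2 there were 11 (967 at an unadjusted p under 0.05), and of these 3 were higher. The share of calls that were higher was 36.1%, 50.4% with TMM factors and 50.04% with quantile normalization. Leader calls numbered 983, 189 to 1396 with 1 library left out and 232 at a mean of at least 50; 94.0% were higher, and 54.7% after quantile normalization. Ratio calls numbered 371, and 0 to 1175 with 1 library left out (limma, 180 at an unadjusted p under 0.05 where 0 passed), 1 with quantile normalization, 629 without a filter, 111 at a mean of at least 50 and 851 with the replicate block. Cytosolic elongation factors called higher in coding reads numbered 5 (0 to 5 with 1 library left out), and other non-ribosomal TOP mRNAs 3 (0 to 6 with 1 library left out, and 5 with TMM factors, quantile normalization or the replicate block). Where 0 passed, without control replicate 2, 4 and 2 had an unadjusted p under 0.05 by limma.

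The labels do not say what the replicate numbers stand for, and 2 pairs do not settle whether they pair the libraries. Deviations of same-numbered libraries had a correlation of 0.26 for coding and -0.06 for leader reads, over genes. With the number as a replicate block, coding calls numbered 1921 and leader calls 1258, and no call of the 5 mRNAs changed other than the ratio of Tpt1. Eef1b2 and Nap1l1 had 8 to 14 leader reads per control, which limits the precision of their leader folds.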

Other observations

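Factors that act beside the cytosolic elongation machinery were also in the table. Both tested mitochondrial elongation factors, of 5 listed, rose in coding reads, as did 10.6% of all genes tested. Gfm1, the mitochondrial translocase, rose from 34.7 ± 2.62 to 86.97 ± 7.93 normalized coding reads (SD, n = 2, log2 1.30, limma adjusted p = 0.00619), and Tufm, the mitochondrial counterpart of eEF1A, from 28.9 ± 12.8 to 65.7 ± 4.88 (log2 1.22, adjusted p = 0.0187). These calls were lost in 2 of 15 and 3 of 14 alternatives. On the leader, Gfm1 rose by 2.90 in log2 (adjusted p = 0.000103). Its leader controls held only 2.87 and 2.59 normalized reads, so Gfm1 passed the leader filter only through the knockdown libraries.

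Release, recycling and rescue factors did not share a direction in coding reads. Of 8 listed, 3 were tested and 1 passed in limma, beside 29.3% of all genes tested (18.7% lower). It was Gtpbp2, a GTPase of ribosome rescue, which fell by 1.52 in log2 (adjusted p = 0.0169, lost in 3 of 14 alternatives). Etf1, the release factor that reads stop codons, had a coding log2 change of 0.71 (adjusted p = 0.12). Its leader reads rose from 7.83 ± 0.0729 to 58.4 ± 7.75 (log2 2.74, adjusted p = 5.28e-06). The leader controls of Etf1 held only 7.88 and 7.78 normalized reads, so it passed the leader filter only through the knockdown libraries.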
